A study of Bos taurus with 18 samples.

Results

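The transcription factors described here are those of later trophoblast and of the trophectoderm, the outer epithelium of the blastocyst that later forms the placenta. They were chosen by gene symbol in the array's annotation table, and 15 probes matched 10 genes among 43794 probes and 15229 gene symbols in all. TFAP2A and TFAP2C had 3 probes each, TEAD4 had 2, and CDX2, GATA2, GATA3, ASCL2, EOMES, HAND1 and DLX3 had 1 each. All 15 probes were above the negative control spots on enough arrays to enter the tests, which covered 40006 probes.

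The trophectoderm and the inner cell mass are the first cell types to separate in a mammalian embryo. Work in the mouse places TEAD4 and its co-activators at the top of this choice, with CDX2, EOMES and the GATA factors acting after it. That work places HAND1, ASCL2 and DLX3 in later trophoblast. In cattle the trophectoderm keeps growing as a free epithelium before attachment and secretes interferon tau, the signal by which the embryo maintains pregnancy.

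The arrays measured RNA of blastocysts made by in vitro fertilisation in 6 groups of 3 arrays, or 18 arrays in all. Groups day6, day7 and day8 were collected as the fluid cavity appeared and are named by days after insemination. For day6+1 and day6+2 the cavity appeared on day 6 and the blastocysts stayed 1 or 2 days longer in culture. For day7+1 it appeared on day 7 and culture went on for 1 more day. All groups shared frozen semen of 1 bull, oocytes of slaughterhouse ovaries, removal of the cumulus cells after insemination, low oxygen and co-culture on VERO cells, a monkey kidney line. No group received a treatment beyond its time in culture, and no in vivo embryos were analysed here. Each group was labelled as 3 biological replicates, but the number of embryos per array and their independence as cultures are not given, so p-values measure the spread between these samples.

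Expression is given as log2 of the normalised spot signal, and a difference of 1 is a doubling. The correlation between pairs of arrays ran from 0.954 to 0.984, and 72.0% to 81.1% of all probes lay above the negative controls, whose upper level was 7.30 to 7.42 log2 units. Of the trophectoderm markers, 10 of 10 on the array were above that level, among them KRT8 and KRT18 on 18 of 18 arrays. Of the 10 cumulus markers, FSHR, CYP19A1, INHBA, STAR and FST were above it on 18 of 18 arrays, and HAS2 and AMH on 1 array each. Of the 8 kidney and fibroblast markers on the array, VIM, COL1A1, COL1A2, THY1 and PAX8 were above it on 18 of 18 arrays and AQP1 on 0. Replicate 1 of day6+1 and replicate 1 of day7, which shared a slide, deviated together from their group means, with a correlation over probes of 0.47. On the first principal component of all arrays, which held 19.6% of the variance, these arrays scored 35.4 and 45.8 and the 3 day8 arrays 39.5, 39.7 and 33.2. The other 13 arrays lay between -30.0 and 7.02, so the day8 group stood apart as a whole and cannot be compared without those arrays. No spot of the 15 probes was saturated or set aside.

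TFAP2A, which encodes the AP-2 alpha factor of trophoblast and surface epithelium, had the widest range of group means among the 15 probes, 2.67 log2 units. Its brightest probe, EMBV3_18537, read 9.30, 8.32 and 8.23 in the 3 day6 arrays. The day6+1 arrays read 10.87, 11.51 and 10.84. The day6+2 arrays read 10.81, 11.63 and 11.42. No array with extra culture overlapped with a day6 array. The day7 arrays read 9.57, 10.59 and 10.20. The day7+1 arrays read 11.45, 11.39 and 10.73. The day8 arrays read 10.72, 9.99 and 10.28. The 3 groups taken at cavity formation thus held the 3 lowest means, and the 3 groups with extra culture the 3 highest. In order of their means the groups ran day6 at 8.62 ± 0.59 (SD, n = 3), day7 at 10.12 ± 0.52, day8 at 10.33 ± 0.37, day6+1 at 11.07 ± 0.38, day7+1 at 11.19 ± 0.40 and day6+2 at 11.29 ± 0.42. Neighbours in this order did not overlap between day6 and day7 and between day8 and day6+1, while the other neighbours overlapped.

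**Figure D1:**
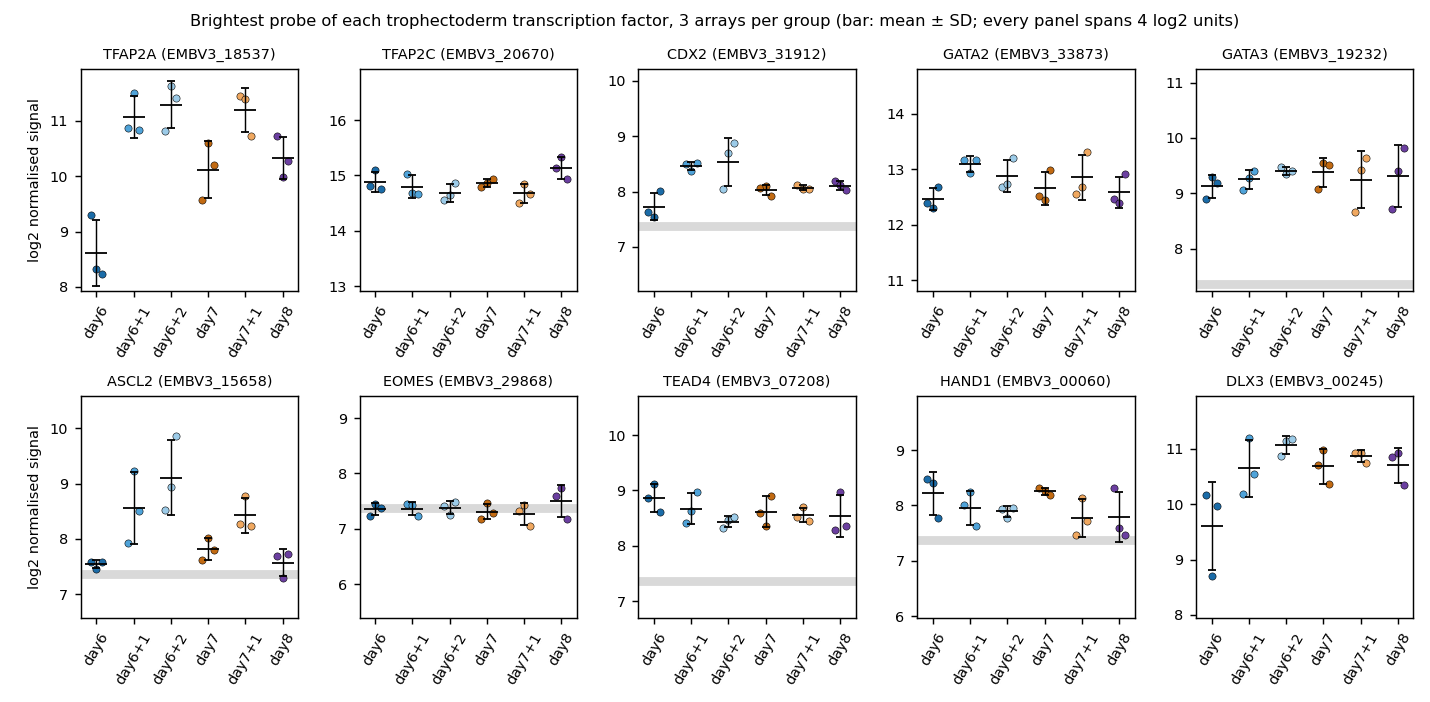
Log2 normalised signal (y axis, each panel spanning 4 log2 units) of the brightest probe of each of the 10 genes in 6 groups (x axis). Points are arrays, black bars the mean ± SD of 3 arrays, and the grey band the upper level of the negative controls, 7.30 to 7.42. The group means of TFAP2A, ASCL2, DLX3, CDX2, GATA2 and GATA3 were lowest in day6. TFAP2C, GATA3, TEAD4, HAND1 and EOMES moved by less than 0.5 between group means.

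The first question of the design was what changed when blastocysts with a cavity on day 6 stayed in culture. After 1 extra day TFAP2A was 2.46 ± 0.31 log2 units (SE) higher, 5.49-fold, with an adjusted p of 3.57e-04 in limma's test with Benjamini-Hochberg adjustment over 40006 probes. CDX2, the homeobox factor that represses pluripotency genes in mouse trophectoderm, was 0.74 ± 0.18 higher at an adjusted p of 0.0453. These 2 of 15 probes passed the threshold of 0.05, both higher, where 1.32% of all probes passed and 0.9% passed as higher. The groups did not overlap at 6 of the 15 probes, all higher in day6+1, against 15% of all probes and 7.33% as higher. The 4 that did not pass were ASCL2 at 1.01 ± 0.29 (adjusted p = 0.107), DLX3 at 1.04 ± 0.30 (0.103), GATA2 at 0.64 ± 0.21 (0.189) and the second TFAP2A probe. Without day6+1 replicate 1, alone or together with day7 replicate 1, ASCL2 passed and CDX2 did not. In whole embryos, more trophectoderm cells and more RNA per trophectoderm cell cannot be told apart.

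The CDX2 call after 1 extra day was close to the threshold and was lost in 13 of 18 fits that each left out 1 array, at adjusted p-values of 0.0512 to 0.226, including arrays of groups outside the comparison. It held only without day6 replicate 3, day6+2 replicate 1 or 3, day7 replicate 3 or day8 replicate 3. Its difference in the 18 fits stayed between 0.64 and 0.88, and with another background correction, normexp with an offset of 50, it was 0.34 at an adjusted p of 0.0924. The groups met on slide 4 alone, with 1 array each, where the difference was 2.61 for TFAP2A and 0.50 for CDX2. With the slide as a fixed block TFAP2A was 2.33 higher at an adjusted p of 0.0633, and CDX2 0.46 higher at 0.795, while the calls over all probes fell from 528 to 45.

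After 2 extra days 4 of 15 probes passed, all of them higher than in day6, where 3.61% of all probes passed and 2.29% passed as higher. TFAP2A was 2.67 ± 0.31 higher, 6.37-fold, at an adjusted p of 4.59e-05. ASCL2, the basic helix-loop-helix factor required for mouse placental spongiotrophoblast, was 1.57 ± 0.29 higher, 2.96-fold, at 0.00307. DLX3, a homeobox factor of placental trophoblast, was 1.45 ± 0.30 higher, 2.74-fold, at 0.00630. CDX2 was 0.81 ± 0.18 higher, 1.75-fold, at 0.0111. The groups did not overlap at 7 of the 15 probes, against 17.9% of all probes. Of these 6 were higher, against 8.92% of all probes, and TEAD4 was lower, against 8.97%. The median difference over the 15 probes was 0.08, and over all probes it was -0.02. This comparison shares its day6 arrays with the one after 1 day.

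ASCL2 read 7.59, 7.46 and 7.57 in the day6 arrays, just above the negative controls. It read 7.93, 9.23 and 8.51 in day6+1, and 8.53, 8.94 and 9.86 in day6+2. The 2 groups with extra culture lay above day6 without overlap, but their own spread was wide, with an SD of 0.65 and 0.68 against 0.07 in day6. DLX3 read 10.16, 8.70 and 9.96 in day6, where replicate 2 lay more than 1 log2 unit under the others. It read 10.19, 11.20 and 10.55 in day6+1 and 10.88, 11.14 and 11.18 in day6+2. The DLX3 groups did not overlap, although replicate 1 of day6+1 lay within 0.03 of replicate 1 of day6.

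CDX2 read 7.63, 7.54 and 8.01 in day6, and 8.51, 8.38 and 8.51 in day6+1. It read 8.05, 8.70 and 8.87 in day6+2, so that the lowest day6+2 array was 0.04 above the highest day6 array. The CDX2 call after 2 days was lost without day6 replicate 1 (adjusted p = 0.0549), day6 replicate 2 (0.0754), day6+2 replicate 2 (0.0723) or day6+2 replicate 3 (0.0744). The calls of TFAP2A, ASCL2 and DLX3 held in each of the 18 fits that left out 1 array, with the difference of DLX3 falling to 1.00 at its lowest. Slides 1 and 4 each held both groups, and the 4 genes were higher in day6+2 on both. TFAP2A was higher by 2.41 on slide 1 and 3.19 on slide 4, CDX2 by 0.79 and 0.86, ASCL2 by 1.21 and 2.29, and DLX3 by 1.57 and 1.21. The CDX2 call was also lost within slide 1 alone (adjusted p = 0.0811) and with scaling to the 75th percentile (0.0661). With normexp the difference of CDX2 was 0.39 (adjusted p = 0.0217) and that of ASCL2 0.83 (0.0315).

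**Figure D2:**
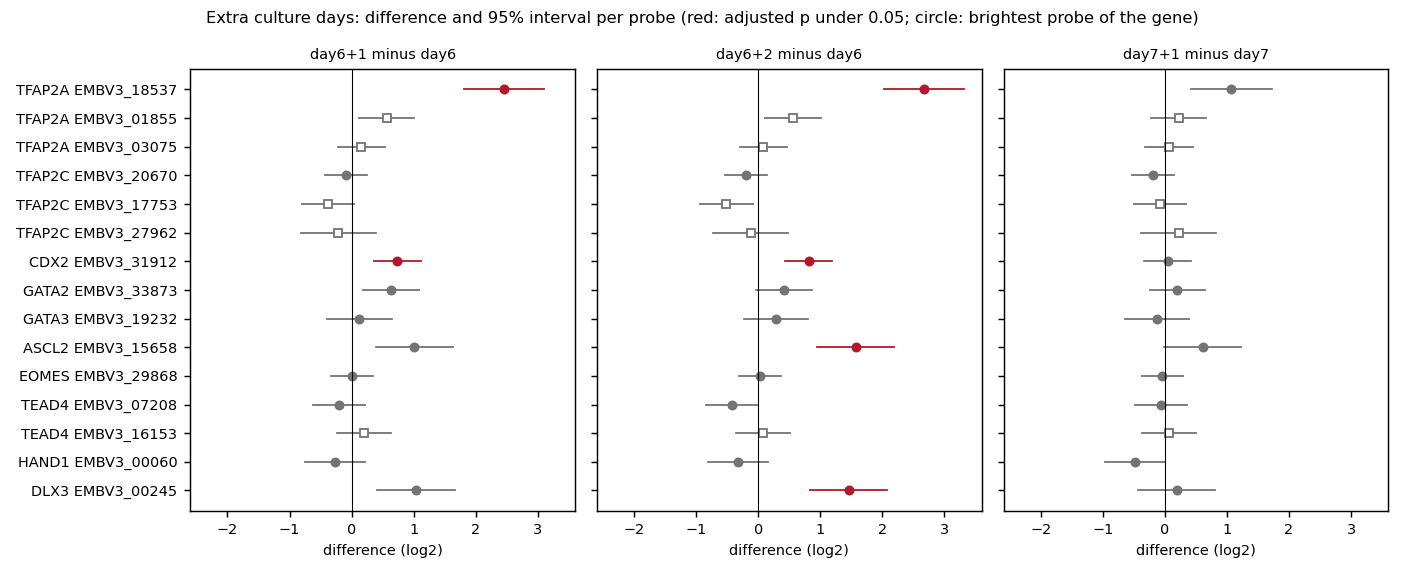
Difference in log2 signal (x axis) with its 95% interval, not adjusted for the number of probes, for the 15 probes (y axis) after 1 extra day from a day 6 cavity, after 2 extra days, and after 1 extra day from a day 7 cavity. Circles are the brightest probe of a gene, open squares its other probes, and red marks an adjusted p under 0.05: 2, 4 and 0 probes in the 3 panels.

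The second extra day taken alone gave 0 calls among the 15 probes and 0 among all 40006 (0%) in limma, with 0 of the 15 and 3.4% of all at an unadjusted p under 0.05. The difference of day6+2 from day6+1 was 0.21 for TFAP2A, with a 95% interval of -0.44 to 0.86, and 0.07 for CDX2, with an interval of -0.30 to 0.45. ASCL2 and DLX3 differed by 0.55 (-0.06 to 1.17) and 0.42 (-0.21 to 1.04). On slide 4, with 1 array of each group, the differences were 0.58 for TFAP2A and 1.35 for ASCL2. A linear trend over the 6 groups, with formation day in the same limma model, had a slope per extra day of 1.28 ± 0.19 (SE) for TFAP2A (adjusted p = 3.59e-04). The slope was 0.75 ± 0.13 for ASCL2 (0.00135), 0.62 ± 0.14 for DLX3 (0.0126) and 0.33 ± 0.09 for CDX2 (0.0389). These 4 of 15 probes compare with 3.81% of all probes. The slope does not describe equal steps, since TFAP2A rose by 2.46 on the first extra day after a day 6 cavity and by 0.21 on the second. The CDX2 trend was lost in 6 of 18 fits that left out 1 array, those without any 1 of the 3 day6 arrays, day6+2 replicate 2 or 3, or day7 replicate 3, at adjusted p-values of 0.0529 to 0.177. It was also lost in each of the 3 settings that started from the scans, at adjusted p-values of 0.0570 (normexp), 0.0837 (75th percentile) and 0.0914 (median centring).

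After a day 7 cavity, 1 extra day gave 0 calls among the 15 probes and 7 among all probes (0.0175%) in limma, while 1 of the 15 and 6.92% of all were under an unadjusted p of 0.05. TFAP2A was 1.07 ± 0.31 higher in day7+1 than in day7, with groups that did not overlap and an adjusted p of 0.414. ASCL2 was 0.61 ± 0.29 higher and HAND1 0.48 ± 0.23 lower, also without overlap, at adjusted p-values of 0.729 and 0.721. These 3 of 15 probes without overlap compare with 10.4% of all probes. CDX2 differed by 0.04 (95% interval -0.33 to 0.42) and DLX3 by 0.19 (-0.44 to 0.81). No slide held arrays of both groups.

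The test of whether the first extra day acted differently after a day 6 and a day 7 cavity gave 0 calls among the 15 probes and 2 among all (0.005%), with 2 of the 15 and 6.55% of all at an unadjusted p under 0.05. The increment of TFAP2A was 1.39 ± 0.44 smaller after a day 7 cavity (adjusted p = 0.415), that of CDX2 0.70 ± 0.25 smaller (0.570) and that of DLX3 0.85 ± 0.42 smaller (0.775). The unadjusted 95% interval was -2.31 to -0.47 for TFAP2A and -1.23 to -0.17 for CDX2.

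The day of cavity formation was compared in the 3 groups collected at formation. In day7, TFAP2A was 2.84-fold higher than in day6 (95% interval of the log2 difference 0.85 to 2.15, adjusted p = 0.0430), and it was the single probe of the 15 to pass, where 0.285% of all probes passed. In day8 it was 1.71 ± 0.31 higher than in day6 (adjusted p = 0.00987), again the single probe of the 15, where 1.54% of all passed. DLX3 was 1.07 ± 0.30 and 1.09 ± 0.30 higher in the same comparisons, at adjusted p-values of 0.148 and 0.0698. The DLX3 groups did not overlap in either, since day7 read 10.71, 10.98 and 10.36 and day8 read 10.85, 10.92 and 10.34. Groups without overlap were found at 3 of the 15 probes in day7 against day6 and at 4 in day8 against day6, against 12.8% and 17.2% of all probes. Both comparisons share the day6 arrays. Leaving out 1 array moved the calls over all probes from 114 to between 8 and 182 in day7 against day6, and from 618 to between 88 and 1003 in day8 against day6.

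ASCL2 gave no call between the groups collected at formation. It read 7.62, 8.02 and 7.81 in day7 and 7.70, 7.29 and 7.72 in day8, with replicate 2 of day8 under the negative controls. Its difference from day6 was 0.28 in day7 (95% interval -0.34 to 0.89) and 0.03 in day8 (-0.59 to 0.64). CDX2 read 8.07, 8.09 and 7.93 in day7 and 8.19, 8.11 and 8.02 in day8, at most 0.38 above day6 in the mean and without a call. Between day8 and day7 there were 0 calls among the 15 probes and 7 among all (0.0175%), with 0 of the 15 and 9.1% of all at an unadjusted p under 0.05, and TFAP2A differed by 0.21 (-0.44 to 0.86). Leaving out 1 array gave 0 to 302 calls over all probes here, and 0 among the 15.

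The TFAP2A calls at formation rested on few arrays. That of day7 against day6 was lost without day6 replicate 2 (adjusted p = 0.221) or 3 (0.141), day7 replicate 2 (0.166) or 3 (0.0827), day6+2 replicate 3 (0.0607) or day7+1 replicate 2 (0.0541). That of day8 against day6 was lost without day6 replicate 2 (0.0704) or day8 replicate 1 (0.0671). DLX3 passed in day8 against day6 without day8 replicate 3. Neither pair of groups shared a slide, and with the slide as a fixed block the TFAP2A differences were 1.20 (adjusted p = 0.703) and 1.23 (0.510). With normexp they were 1.05 (0.163) and 1.22 (0.0507). The linear trend over the day of formation gave 0.71 ± 0.19 per day for TFAP2A at an adjusted p of 0.0962, and 0 of 15 probes passed, where 0.275% of all did; TFAP2A passed without day6+1 replicate 2.

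Groups of the same time in culture were then compared, so that the day of cavity formation differed at equal age. At 7 days, day7 against day6+1 gave 0 calls among the 15 probes and 0 among all (0%) in limma, with 3 of the 15 and 5.4% of all at an unadjusted p under 0.05. TFAP2A was 0.95 ± 0.31 lower in day7 and CDX2 0.44 ± 0.18 lower, the 2 of 15 probes without overlap, against 9.71% of all probes. Slide 3 held 2 arrays of each group, and the differences there were -1.11 for TFAP2A and -0.36 for CDX2.

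At 8 days, ASCL2 was 1.54 ± 0.29 lower in day8 than in day6+2 (2.90-fold, adjusted p = 0.0319), and it was the single probe of the 15 to pass, where 0.322% of all probes passed. That share rests on 129 calls, which ran from 2 to 568 when 1 array was left out. Each day8 array lay under each day6+2 array by at least 0.8. The brightest TFAP2A probe was 0.96 ± 0.31 lower (adjusted p = 0.193) and also did not overlap. The brightest TFAP2C probe was 0.44 ± 0.16 higher (0.270) without overlap, which makes 3 of 15 probes against 15.2% of all. The other TFAP2C probes differed by 0.14 and -0.04, with overlap. The ASCL2 call was lost without day6+2 replicate 2 (0.0940) or 3 (0.158) and without any 1 of the 3 day8 arrays (0.0614 to 0.133). No slide held both groups, and with the slide as a fixed block ASCL2 was 2.15 lower at an adjusted p of 0.221. With normexp it was 0.81 lower (0.144). The day8 arrays were those that stood apart on the first principal component, where the day6+2 arrays scored -13.4, -30.0 and -27.5. In the other arrays that stood apart, replicate 1 of day6+1 and of day7, ASCL2 read 7.93 and 7.62, the lowest value of each group, and TFAP2C read 15.03, the highest of day6+1, and 14.79, the lowest of day7. Over the 18 arrays, day8 included, scores on this component had a Pearson r of -0.61 with ASCL2 and 0.61 with the brightest TFAP2C probe. The r was 0.17 and 0.11 with the other TFAP2C probes. The part of this component in the ASCL2 and TFAP2C differences was not tested.

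Against day7+1, day8 gave 0 calls among the 15 probes and 0 among all (0%) in limma, with 3 of the 15 and 8.08% of all at an unadjusted p under 0.05. Leaving out 1 array gave 0 to 170 calls over all probes, and 0 among the 15. ASCL2, which read 8.27, 8.78 and 8.23 in day7+1, was 0.85 ± 0.29 lower in day8, and TFAP2A was 0.86 ± 0.31 lower. The brightest TFAP2C probe was 0.45 ± 0.16 higher. These 3 probes had no overlap between the groups, where 12.7% of all probes had none. The other TFAP2C probes differed by -0.02 and -0.01, with overlap. On slide 2, with 2 arrays of each group, ASCL2 differed by -1.03 and TFAP2A by -1.06. Between day7+1 and day6+2, both of 8 days with extra culture, there were 0 calls among the 15 and 0 among all (0%), with 2 of the 15 and 4.6% of all at an unadjusted p under 0.05. TFAP2A differed there by -0.10 (95% interval -0.75 to 0.55) and ASCL2 by -0.68 (-1.30 to -0.07).

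**Figure D3:**
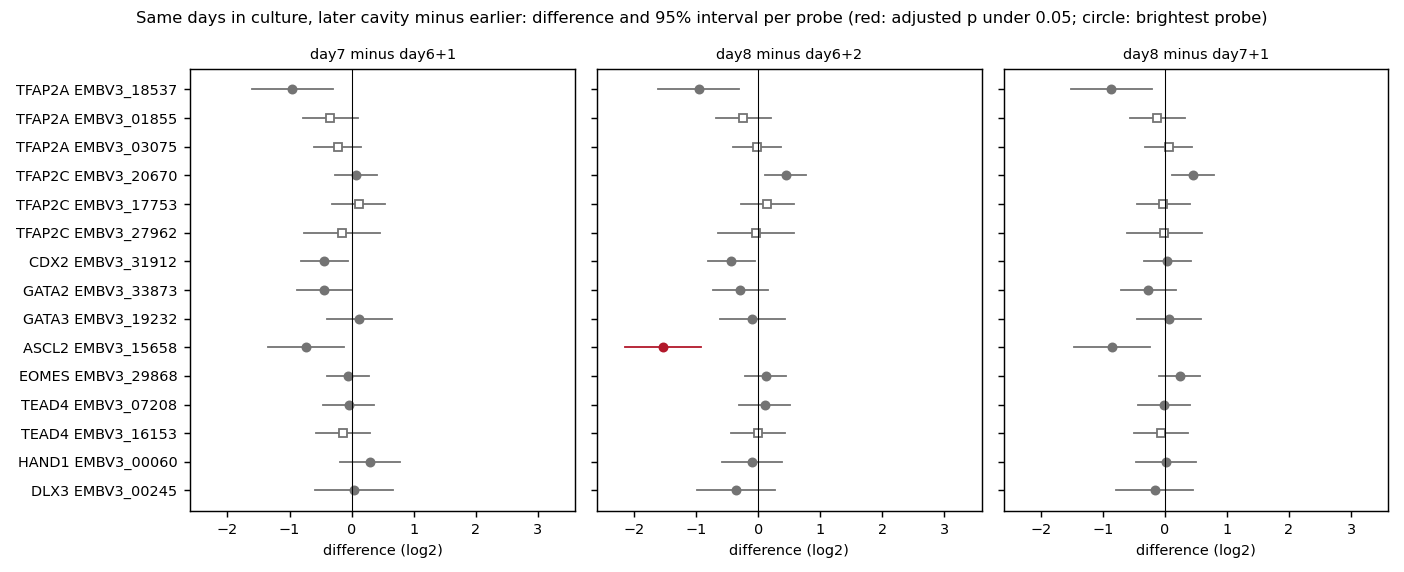
Difference in log2 signal (x axis) with its unadjusted 95% interval for the 15 probes (y axis) between groups of the same time in culture, the group with the later cavity minus the earlier. Circles are the brightest probe of a gene and red marks an adjusted p under 0.05, which ASCL2 reached at -1.54 in day8 against day6+2.

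Over all 6 groups, limma's F test passed for TFAP2A (adjusted p = 4.15e-04) and ASCL2 (0.0142), 2 of 15 probes, where 2.17% of all probes passed. DLX3 and CDX2 stood at 0.0681 and 0.0746. The ASCL2 call was lost without day6 replicate 2 (0.0538), while DLX3 passed without replicate 1 or replicate 2 of day6+1 and CDX2 without replicate 1 of day6+2.

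The GATA factors, which bind GATA motifs and act in trophectoderm of mouse and cattle, gave no call in any comparison. GATA2 read 12.39, 12.30 and 12.69 in day6 and 13.18, 12.94 and 13.18 in day6+1, without overlap. In day6+2 it read 12.69, 12.73 and 13.21, which overlapped with day6, and its mean difference from day6 was 0.41 (95% interval -0.03 to 0.86). That difference was 0.36 within slide 1 and 0.52 within slide 4. Replicate 3, on slide 4 or 5, was the highest GATA2 array of each group. In day7, day7+1 and day8 the GATA2 values lay between 12.39 and 13.31. GATA3 lay between 8.67 and 9.81 over all 18 arrays, with group means from 9.13 in day6 to 9.41 in day6+2. Its difference of day6+2 from day6 was 0.28 (-0.24 to 0.80), and these groups did not overlap. Neighbours in the order of its means all overlapped.

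TFAP2C, which encodes the AP-2 gamma factor needed for trophoblast in the mouse, stayed high in every group. Its brightest probe, EMBV3_20670, lay between 14.51 and 15.33 on the 18 arrays. The day8 arrays, at 15.13, 15.33 and 14.93, gave the highest group mean, 15.13 ± 0.20, and the day7+1 arrays, at 14.51, 14.85 and 14.66, the lowest, 14.68 ± 0.17. After 2 extra days from a day 6 cavity the difference was -0.20 (95% interval -0.53 to 0.14), which leaves out a change of the size seen at TFAP2A. The other TFAP2C probes differed by -0.52 (-0.94 to -0.09, adjusted p = 0.225) and -0.12 (-0.73 to 0.49) in that comparison. At the last of these, EMBV3_27962, replicate 3, on slide 4 or 5, was the lowest array of each group. In day8 against day6 the probe EMBV3_17753 differed by -0.37 without overlap (adjusted p = 0.474 in limma). The brightest probe differed there by 0.24, with overlap.

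TEAD4, the DNA-binding partner of the co-activator YAP1, read 8.86, 9.12 and 8.61 at its brighter probe in day6. In day6+2 it read 8.32, 8.47 and 8.52, each under each day6 array. The difference of -0.43 (95% interval -0.84 to -0.01) had an adjusted p of 0.358, and the second TEAD4 probe differed by 0.07 (-0.37 to 0.51). In the remaining groups the brighter probe lay between 8.28 and 8.98.

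HAND1, a basic helix-loop-helix factor of trophoblast giant cells in the mouse, lay between 7.46 and 8.48. Its means were 8.22 ± 0.39 in day6 and 8.25 ± 0.07 in day7, and between 7.77 and 7.96 in the other 4 groups. Its difference of day6+2 from day6 was -0.33 (95% interval -0.81 to 0.15). EOMES, a T-box factor of mouse trophoblast stem cells, was above the negative controls on 9 of 18 arrays, with 1 or 2 of 3 arrays in every group. Its values ran from 7.05 to 7.73, and its difference of day6+2 from day6 was 0.03 (-0.31 to 0.36), near the limit of what this probe could measure.

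Where a gene had several probes they did not all show the same difference. The second TFAP2A probe, EMBV3_01855, was above the negative controls on 0 of 3 day6 arrays and on 3 of 3 arrays in day6+1, day6+2 and day7+1. It was 0.57 higher in day6+1 and 0.56 higher in day6+2 than in day6, at adjusted p-values of 0.281 and 0.199 in limma. With the lowest signal above background in place of the day6 mean, the means were 1.25-fold and 1.24-fold higher, which was not tested. The third, EMBV3_03075, was above the negative controls on 6 arrays and differed by 0.08 (95% interval -0.30 to 0.46) between day6+2 and day6. Taken as the mean of its 3 probes, TFAP2A was 1.06 higher after 1 extra day (adjusted p = 0.0165) and 1.10 higher after 2 (0.00414). By that mean the differences of day7 and day8 from day6 were 0.55 and 0.70, at adjusted p-values of 0.356 and 0.108.

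**Figure D4:**
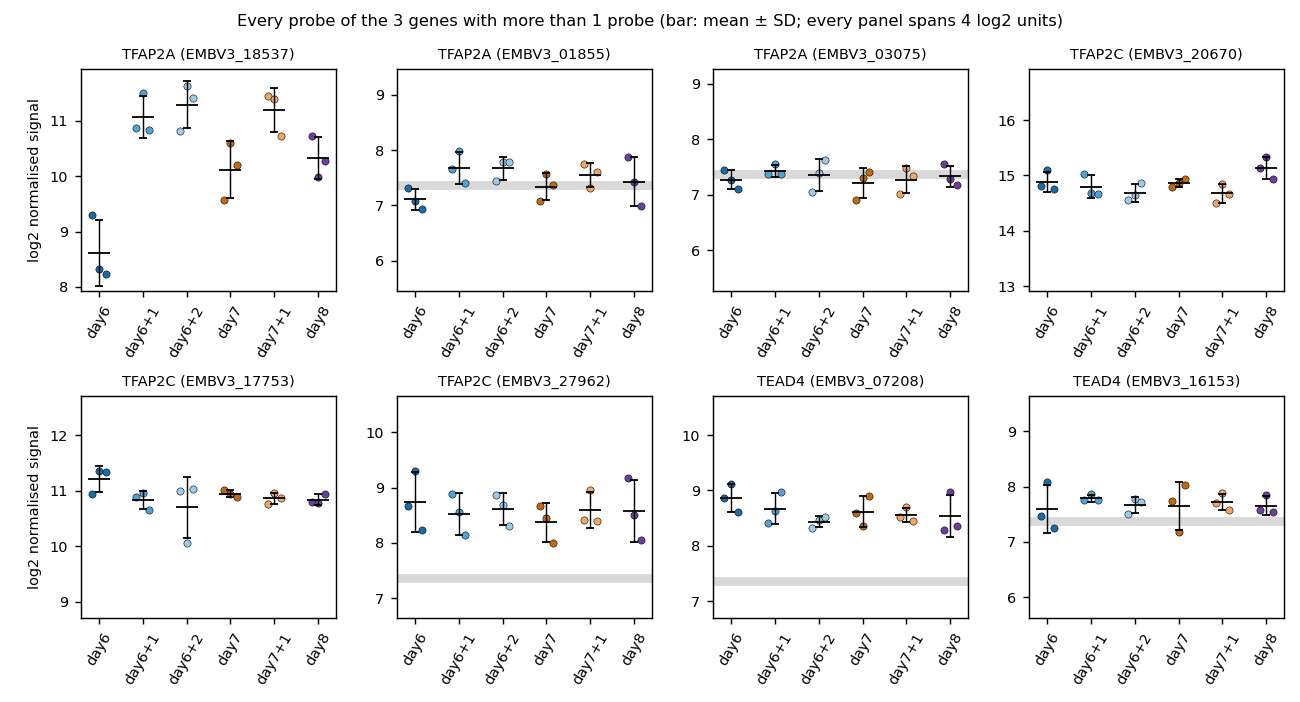
Log2 normalised signal (y axis, each panel spanning 4 log2 units) of all 8 probes of TFAP2A, TFAP2C and TEAD4 in 6 groups (x axis), with points for arrays, black bars for the mean ± SD of 3 arrays and a grey band for the upper level of the negative controls. The brightest TFAP2A probe spans 3.40 over the 18 arrays, while the other TFAP2A probes lie at or near the grey band and span 1.03 and 0.72.

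Across the 18 arrays, which share groups and slides, the brightest probes of TFAP2A and DLX3 had a Pearson r of 0.80, TFAP2A and ASCL2 0.74, CDX2 and ASCL2 0.72, and TFAP2A and CDX2 0.70. TEAD4 and DLX3 had an r of -0.50. These are descriptions over arrays that fall into the 6 groups. Among 20151 probes of other named genes, those most like TFAP2A by Pearson r over the 18 arrays were SLC23A1 at 0.949, ABHD14B at 0.941 and SLC41A2 at 0.937. Those most like ASCL2, among 20153 probes, were TMEM150A at 0.875, FAM115A at 0.874 and SLC22A23 at 0.864. A second SLC23A1 probe had an r of -0.20 with TFAP2A, and 7 other TMEM150A probes ran from -0.68 to 0.37 with ASCL2.

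Other genes around these factors were counted by their brightest probe. Of all probes, 0.9% rose and 0.42% fell after 1 extra day from a day 6 cavity, and 2.29% rose and 1.33% fell after 2. Of 14 tested genes of the Hippo and TEAD circuit, which relays cell contact and polarity to TEAD4, 0 passed after 1 extra day. After 2 extra days 4 rose, namely VGLL1, a TEAD cofactor, by 1.19 ± 0.27, ANKRD1, a YAP target, by 1.17 ± 0.23, TEAD2 by 0.85 ± 0.20 and NF2 by 0.67 ± 0.18. TEAD1 fell by 1.11 ± 0.23, and the median of the 14 was -0.08. Of 31 further trophoblast transcription factors, DLX4 and FOSL1 rose after 1 extra day, by 1.23 ± 0.23 and 1.15 ± 0.24. After 2 extra days MYC (2.08 ± 0.31), ID2 (1.87 ± 0.37), DLX4 (1.40 ± 0.23) and FOSL1 (1.15 ± 0.24) rose and CITED2 fell by 1.19 ± 0.24, while 26 did not pass and the median was 0.01. Of 13 placental secretory and steroid genes, 6 rose after 1 extra day and 8 after 2, and 0 fell, with medians of 1.99 and 2.60, where the median of all probes was -0.01 and -0.02. Among them HSD3B1 rose by 3.53 ± 0.38 and CYP11A1 by 2.97 ± 0.43 after 2 days, both enzymes of progesterone synthesis. In day8 against day6, 5 of these 13 rose and 0 fell, with a median of 1.12, where 0.9% of all probes rose. So did ANKRD1, by 1.75 ± 0.23, and 2 of the 31 factors, DLX4 and ARID3A. In day7 against day6, 2 of the 13 rose, with a median of 1.06, where 0.212% of all probes rose. After 1 extra day from a day 7 cavity, 0 of the 13 passed, with a median of 0.14, where 0.0175% of all passed.

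Marker levels of cell types moved with these groups. The summed linear signal of 10 trophectoderm markers was 108024 to 158673 in day6, 195189 to 209095 in day6+1 and 231195 to 258625 in day6+2. It was 176116 to 204716 in day7, 196430 to 214837 in day7+1 and 185773 to 218455 in day8. After 2 extra days from a day 6 cavity 6 of these 10 markers rose, where 2.29% of all probes rose and 1.33% fell. They were KRT19, SFN, DSP, IFNT, PAG11 and PTGS2, the last 3 of which are also counted among the placental genes above. KRT8, KRT7 and CDH1 differed by less than 0.1 and KRT18 by 0.57 (adjusted p = 0.0567). Of 10 epiblast markers 2 rose, NANOG and TDGF1, and 4 fell, POU5F1, KLF4, PRDM14 and SPIC. Their summed signal was 21945 to 26563 in day6 and 17139 to 17745 in day6+2. Of 8 hypoblast markers LAMA1 rose and PDGFRA fell, with sums of 79656 to 85509 in day6 and 75973 to 79553 in day6+2. After 1 extra day the same 6 trophectoderm markers rose, NANOG rose, KLF4, PRDM14 and SPIC fell, and HNF4A rose. In day8 against day6, KRT19, SFN, DSP, IFNT and PTGS2 rose, NANOG rose by 1.74 ± 0.35, SPIC fell by 0.90 ± 0.22 and GATA4, a hypoblast factor, fell by 2.41 ± 0.55 (adjusted p = 0.0319). In day7 against day6, 2 trophectoderm markers and 1 epiblast marker rose and 0 hypoblast markers passed. Of 8 tested cumulus and 7 tested kidney and fibroblast markers 0 passed. The cumulus sums were 2368 to 2914 in day6, 2820 to 3199 in day6+1 and 2774 to 3339 in day6+2. They were 2278 to 3055 in day7, 2559 to 3052 in day7+1 and 2482 to 2678 in day8. The kidney and fibroblast sums were 2857 to 3588 in day6, 3066 to 4426 in day6+1 and 3631 to 4824 in day6+2. They were 3946 to 5503 in day7, 4490 to 5450 in day7+1 and 3976 to 4981 in day8, so that each group except day6+1 lay above day6 without overlap. The brightest TFAP2A probe lay above day6 without overlap in day6+1 as well as in these groups. The part of these cell types in the differences of the 15 probes was not tested.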

How the data were processed

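RNA of 18 blastocyst samples was amplified in 2 rounds, labelled with Cy3 and hybridised to 1-colour Agilent EmbryoGENE arrays, per the labels. Per the file headers, the scans hold foreground and local background intensity per spot. The authors' deposited value table is in log2 units. Each of its columns ranked the probes as the scan's foreground less local background (medians) did, with a rank correlation of 1. A rank correlation cannot show which normalisation across the 18 arrays was used. The column medians were 7.76 to 7.77. The submitters' processing notes name R 3.2.4 and limma 3.28.5 for 9 samples. Median raw signal was 157 to 302 intensity units over a background of 14 to 21, and the number of arrays limits the precision.

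Probes above the 95th percentile of 153 negative control spots on 3 or more arrays were kept, 40006 of 43794. The annotation gives 21790 probes 1 symbol, 0 several and 22004 none. All 10 symbols are in the ARS-UCD2.0 gene table; no genome or sequence was used. limma 3.58.1 under R 4.3.3 fitted a mean per group over all arrays, with Benjamini-Hochberg adjustment per comparison over all kept probes at a threshold of 0.05, for 11 pairwise and 4 other comparisons; a linear model of formation day and extra days gave the trends. Scripts were tested on simulated data. Differences come with the standard error of that fit, group means with the SD.

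The genes, the lists and the comparisons were chosen with earlier results of these data known. All probes of the 10 genes are named, led by the brightest over all arrays; the like genes are the 3 highest correlations with each gene past the F test. Slides are known from file names alone. Replicates 1 and 2 of day6+2 and day6 were on slide 1, of day8 and day7+1 on slide 2, and of day7 and day6+1 on slide 3. Replicate 3 was on slide 5 for day8 and day7 and on slide 4 for every other group. Replicates of the same number correlated by over 0.1 in all 3 pairs, after group means were removed, in day6+2 against day6+1 (r = 0.171, 0.127 and 0.247) and day7 against day6+1 (r = 0.472, 0.127 and 0.252). The replicate number as a block gave 0 of the 15 probes in both, as without it. The alternatives tried were scan values with normexp, scaling to the 75th percentile, median centring, no filter, the mean of a gene's probes, slide or replicate as a block, another variance model, 6 arrays alone, and leaving out arrays.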

Additional observations from a re-analysis of the deposited data

How the results depend on the processing

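No difference of the 15 probes that passed was reversed under any alternative. TFAP2A, ASCL2 and DLX3 in day6+2 against day6 passed under 30 of 30 alternatives, and CDX2 under 24 of 30. The count of 2 in day6+1 against day6 was 1 with normexp, with scaling to the 75th percentile, with median centring, with the slide as a random block and with the 6 arrays alone, and 0 with the slide as a fixed block. The count of 1 in day7 against day6 was 0 with normexp, median centring, either slide block and the 6 arrays alone. The count of 1 in day8 against day6 was 0 with normexp and the fixed slide block, and 2, with DLX3 added, with the 75th percentile and without replicate 1 of both day6+1 and day7. The count of 1 in day8 against day6+2 was 0 with normexp, median centring and the fixed slide block. The F test's 2 was 1 with normexp and median centring, and the trend's 4 per extra day was 2 with median centring and 3, CDX2 lost, with normexp and the 75th percentile. Leaving out 1 array gave 1 to 2 (day6+1 against day6, with ASCL2 in place of CDX2 without day6+1 replicate 1), 3 to 4 (day6+2 against day6), 0 to 1 (day7 against day6), 0 to 2 (day8 against day6), 0 to 1 (day8 against day6+2), 1 to 3 (F test), 3 to 4 (trend per extra day) and 0 to 1 (trend per formation day). The cause of these changes was not tested. Fits that left out arrays also had fewer samples, and the part of that was not tested either.

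With the replicate block, day6+1 against day6 gave 3 of the 15 probes, GATA2 added, and 846 probes in all. Replicates of the same number in these groups correlated by -0.03, 0.25 and 0.04 after group means were removed. Of them only replicate 3 shared a slide, slide 4. Over all probes, median centring gave 843 calls in day6+2 against day6, 690 of them higher, where the main setting gave 1446 with 915 higher; in day6+1 against day6 it gave 274 with 253 higher, where the main setting gave 528 with 360. Leaving out 1 array gave 797 to 1606 calls in day6+2 against day6 and 146 to 688 in day6+1 against day6, with both lowest counts without day6 replicate 2. The fixed slide block gave 45 in day6+1 against day6. Over every alternative, the calls over all probes ran from 8 to 251 in day7 against day6 (main 114), 6 to 1242 in day8 against day6 (618), 0 to 577 in day8 against day7 (7), 1 to 861 in day8 against day6+2 (129) and 0 to 537 in day8 against day7+1 (0), so the shares of all probes called there are not stable. Scaling to the 75th percentile gave a median over all probes of -0.13 in day6+1 against day6 and -0.10 in day6+2 against day6, where the main setting gave -0.01 and -0.02. EOMES and the fainter TFAP2A probes lay near the negative controls, which limits what they show. ASCL2 in day6 (7.46 to 7.59) and day8 (7.29 to 7.72) and CDX2 in day6 (7.54 to 8.01) also lay close to that level. This limits the size of their differences from those groups.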
